A study of Mus musculus with 3 samples.

Results

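Pericytes of the medial vestibular nucleus (MVN), the brainstem nucleus that receives signals from the balance organ of the inner ear, were examined by single-cell RNA sequencing. A barcode counted as a pericyte when it held at least 200 genes, at least 1 transcript molecule (UMI, unique molecular identifier) of at least 3 of the 6 genes Kcnj8, Vtn, Atp13a5, Higd1b, Abcc9 and Art3, and UMIs of fewer than 2 of the 4 contractile genes Acta2, Myh11, Tpm2 and Mylk. By this rule 185 of 13964 kept cells were pericytes. The rule used measured values, so the levels of these 10 genes, and of any gene that marks the same cells, describe the selection and are not findings. The study asked how cells of the MVN differ after unilateral labyrinthectomy (UL), the surgical destruction of the balance organ of 1 ear. The ULI group was the ipsilateral MVN of C57BL/6 mice after UL of the right ear, the ULC group was the contralateral MVN of the same mice, and the control group was MVN of mice in which, per the study's methods, the tympanic bulla alone was opened. All mice were of the same strain and age (C57BL/6J, postnatal day 20 per the methods) and UL mice were sacrificed 1 day after surgery. MVN was cut from slices of 500 µm, 11 UL mice and 10 control mice were pooled, and each group was 1 library, so the groups have no replicate check. No p-value is given, and every interval covers counting error only. The treatment field of the GEO records names labyrinthectomy for the control as well, and the study's texts name different capture platforms, so the platform is not settled here.

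Pericytes are mural cells wrapped around capillaries, embedded in the basement membrane that they share with the endothelium. They are recruited by platelet-derived growth factor from endothelial cells acting on their receptor Pdgfrb, help to keep the blood-brain barrier closed, and influence capillary diameter through potassium channels and G protein signalling. They grade into the contractile smooth muscle cells of arterioles and venules, which share many of their genes.

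The pericytes numbered 106 of 4813 kept ULI cells, 43 of 4544 kept ULC cells and 36 of 4607 kept control cells. They held 213884, 93727 and 107982 UMIs in ULI, ULC and control, with medians of 1847, 1546 and 2441.5 UMIs per cell. All kept cells of ULI, ULC and control had medians of 2100, 931 and 3177 UMIs, so the ULC library was the shallowest and the control library the deepest. The ULC library also stood apart by choroid plexus transcripts: the 6 markers Ttr, Enpp2, Kl, Folr1, Clic6 and Kcne2 summed to 15659 CPM (UMIs of a gene scaled to a common total) in the non-pericytes of ULI, 55252 CPM in those of ULC and 5888 CPM in those of control. Mitochondrial transcripts made up a median of 6.25%, 6.48% and 7.99% of the UMIs of a pericyte in ULI, ULC and control.

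The label was checked against genes that the rule did not use. Pdgfrb, the receptor that recruits pericytes, was at 439 CPM in ULI, 651 CPM in ULC and 722 CPM in control pericytes, between 31.0 and 99.0 times the level in all other cells of the same library. Rgs5, a regulator of G protein signalling long used as a pericyte marker, was the strongest of these at 33672 CPM, 25638 CPM and 44480 CPM in ULI, ULC and control, and had at least 1 UMI in 104 of 106, 42 of 43 and 35 of 36 pericytes. Notch3 (1562, 1451 and 1908 CPM) and Cspg4, the proteoglycan NG2 (608, 1088 and 658 CPM), were also present in ULI, ULC and control. Ndufa4l2, a further check gene, had only 2 and 1 UMIs in ULI and control pericytes, against 53 in ULC. Anpep, Cox4i2 and Kcne4, also set for this check, are not shown. Notch3 was 0.76, 0.69 and 0.70 times its smooth muscle level in ULI, ULC and control, and Rgs5 1.59, 1.82 and 1.27 times. The 4 genes above thus did not go against a mural label, but they do not by themselves separate pericytes from smooth muscle cells. As a description of the selection, which limits the contractile genes, Acta2 and Cnn1 had 0 UMIs in the pericytes of each library. The 6 smooth muscle markers summed to 1627, 1078 and 1445 CPM in the pericytes of ULI, ULC and control, nearly all of it Mylk, a myosin kinase, and to 550, 444 and 154 CPM in all other cells.

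Of the 185 pericytes, 35 held exactly 3 of the markers, 48 held 4, 54 held 5 and 48 held all 6. The 35 cells just inside the marker threshold had 21352 CPM of Rgs5, 379 CPM of Pdgfrb and a median of 1423 UMIs, while the 46 cells just outside it, with 2 markers, had 2960 CPM of Rgs5, 133 CPM of Pdgfrb and a median of 2862 UMIs. The myelin gene Mbp was at 1170 CPM in the 35 cells and 2858 CPM in the 46. At the contractile threshold, 152 pericytes held 1 contractile gene, nearly always Mylk, and 33 held none. The 152 just inside had 37865 CPM of Rgs5 and the 50 cells just outside, with 2 contractile genes, had 38879 CPM, so pooled Rgs5 was similar on both sides. Notch3 was similar too (1754 and 1862 CPM), while Cspg4 (742 and 424 CPM) and the marker Kcnj8 (1814 and 872 CPM) were lower outside. The 154 cells with 3 or more pericyte markers that the contractile threshold set aside are called contractile mural cells here (72 in ULI, 29 in ULC and 53 in control).

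Transcripts of other cell types were found in some pericytes. In all, 41 pericytes met the 3-marker rule of another class: 14 in ULI, 11 in ULC and 16 in control. Of these, 31 held 3 or more of 6 oligodendrocyte markers (9 in ULI, 9 in ULC and 13 in control). The rule of a class other than oligodendrocyte was met by 19 pericytes (7 in ULI, 7 in ULC and 5 in control), some of them also among the 31. These 19 held 15.8%, 38.0% and 23.2% of the pericyte UMIs of ULI, ULC and control. Choroid plexus and endothelial transcripts were the most unevenly divided. In ULC, 2 pericytes met the choroid plexus rule, and the choroid plexus markers summed to 687 CPM in ULI, 40095 CPM in ULC and 139 CPM in control pericytes. In control, 3 pericytes met the endothelial rule, against 0 in ULI and 1 in ULC, and the 6 endothelial markers summed to 351, 533 and 2445 CPM in ULI, ULC and control pericytes, with Cldn5 and Pecam1 at 0 in ULI. Each gene count was therefore also taken over the 166 pericytes that met no rule of a class other than oligodendrocyte (99 in ULI, 36 in ULC and 31 in control). Below, pericytes of a second class are the 19 left out, and the 166 still include some with 3 oligodendrocyte markers.

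The share of pericytes was larger in ULI than in ULC and control. They made up 2.20% of kept ULI cells (exact Clopper-Pearson 95% interval 1.81% to 2.66%), 0.946% of ULC cells (0.686% to 1.27%) and 0.781% of control cells (0.548% to 1.08%). The ULI interval lay above the others, and those of ULC and control overlapped. When no contractile gene was allowed, 15 pericytes remained in ULI, 13 in ULC and 5 in control, and the intervals of all 3 shares overlapped. After every cell was thinned to 1000 UMIs, which left out 1376 ULI, 2364 ULC and 597 control cells that were shallower, the shares were 2.79%, 1.47% and 0.923%, in the same order. As a share of vascular cells (pericytes, contractile mural cells, smooth muscle cells, endothelial cells and fibroblasts) pericytes were 20.8% in ULI (17.3% to 24.6%), 12.8% in ULC (9.42% to 16.8%) and 10.8% in control (7.71% to 14.7%). Smooth muscle cells followed the same order, at 4.40%, 2.33% and 1.28% of kept cells in ULI, ULC and control, whereas endothelial cells ran the other way, at 2.02%, 2.95% and 3.43%. Pericytes were 59.6% of the cells with 3 or more pericyte markers in ULI, 59.7% in ULC and 40.4% in control, the remainder being contractile mural cells. At 1000 UMIs per cell these shares were 74.4% (66.0% to 81.7%), 66.7% (51.6% to 79.6%) and 61.7% (48.2% to 73.9%), with overlapping intervals. Cells with 3 or more markers were deeper in control, with medians of 2122.5, 1934 and 2917 UMIs in ULI, ULC and control. With 1 library per group, a difference between libraries cannot be told apart from a difference between groups.

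**Figure D1:**
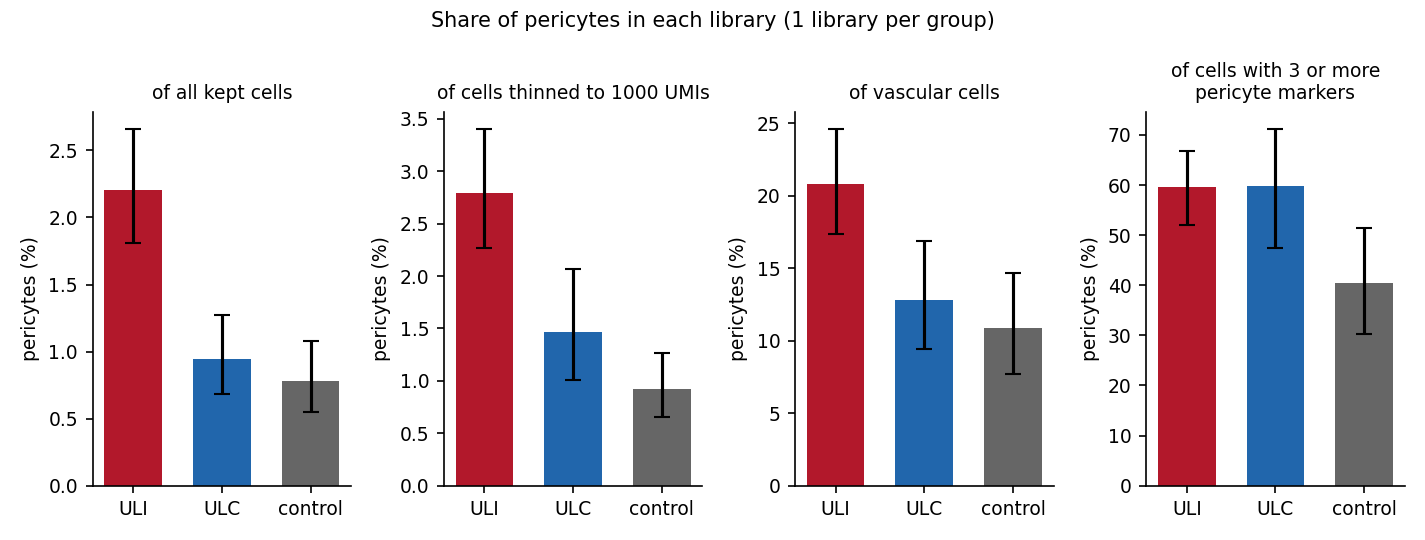
Percentage of cells that were pericytes in the ULI, ULC and control libraries (bars) with exact 95% binomial intervals (lines), over 4 denominators. ULI is highest in the first 3 panels (2.20%, 2.79% and 20.8%), and the last panel has 59.6%, 59.7% and 40.4% in ULI, ULC and control, which at 1000 UMIs per cell were 74.4%, 66.7% and 61.7% with overlapping intervals.

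Among 576 genes with at least 20 pericyte UMIs in each library, 66 were at least 10 times as high in pericytes as in all other cells of each library, which describes cells chosen on correlated genes. The 15 leading genes outside the rule, ranked by the lowest of the 3 folds, included P2ry14, Enpep, Naalad2, S1pr3, Slc30a10, Gper1, Cd248, Ggt5, Pdgfrb, Rgs5, Ifitm1, Lhfp, Tbx2 and Il34, with lowest folds between 56.6 and 25.7. Enpep, aminopeptidase A, a peptidase that acts on angiotensin II, was at 538 CPM in ULI, 523 CPM in ULC and 426 CPM in control. Receptors formed a further group: P2ry14, a receptor for nucleotide sugars, was at 977, 491 and 546 CPM in ULI, ULC and control, S1pr3, a sphingosine-1-phosphate receptor, at 234, 491 and 435 CPM, and the estrogen receptor Gper1 at 346, 331 and 491 CPM. Slc30a10, a manganese exporter, was at 454, 245 and 287 CPM, and was 39.2, 36.1 and 36.7 CPM in the smooth muscle cells of ULI, ULC and control. In contractile mural cells Slc30a10 was at 222, 243 and 80.3 CPM, and in fibroblasts at 236, 59.2 and 189 CPM, so it was not particular to pericytes. Il34, a ligand of the microglial receptor Csf1r, was at 238, 224 and 259 CPM in the pericytes of ULI, ULC and control.

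**Figure D2:**
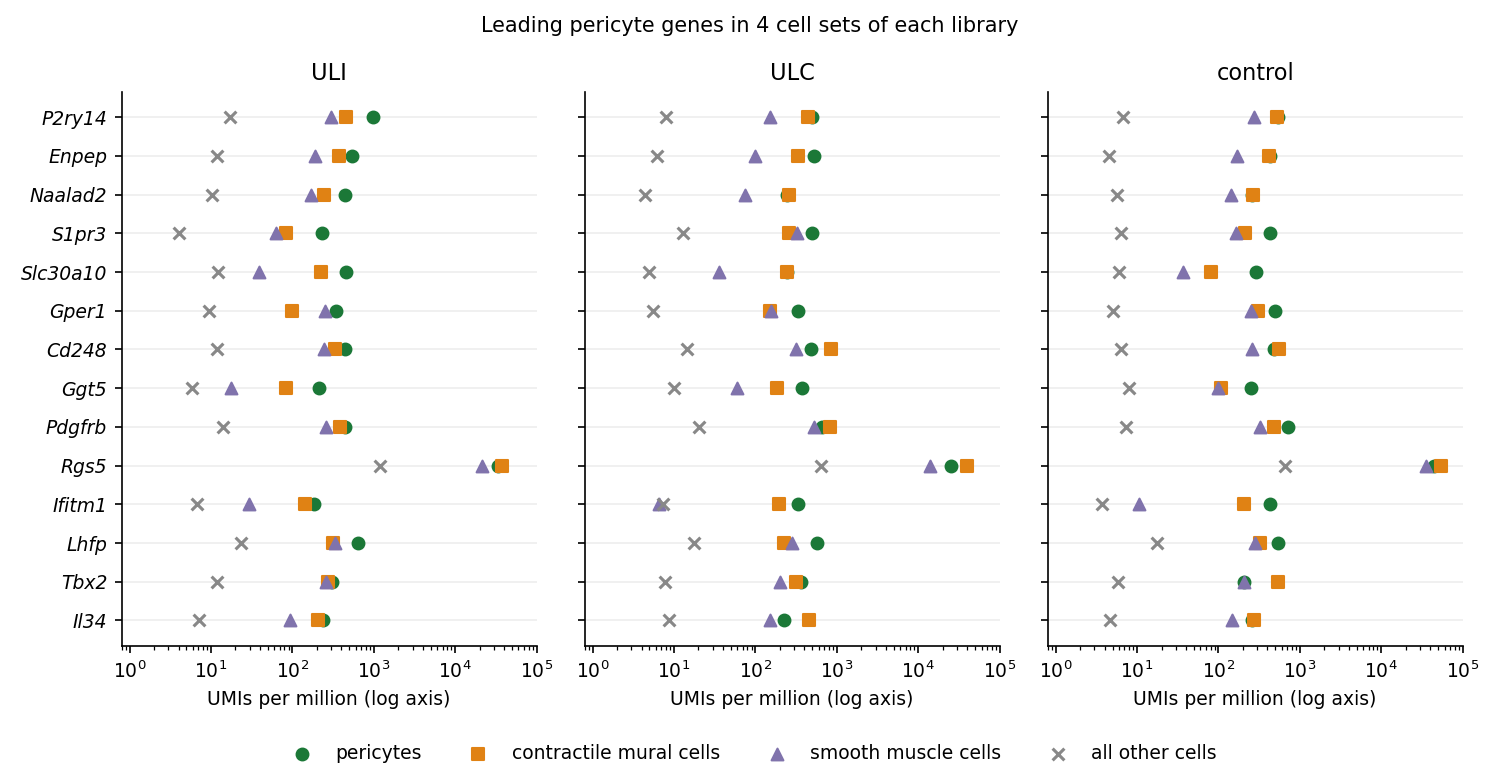
Levels of the leading pericyte genes named in the text (CPM, log axis) in pericytes, contractile mural cells, smooth muscle cells and all other cells of the ULI, ULC and control libraries. Contractile mural cells lie close to pericytes for most genes (Rgs5 was 33672 CPM in pericytes of ULI and 37914 CPM in contractile mural cells of ULI), and all other cells lie at least 25.7 times lower.

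Of the genes that the rule counts, Kcnj8 and Abcc9 encode the pore and the regulatory subunit of the ATP-sensitive potassium channel of mural cells, and they are neighbours on chromosome 6, with 16247 bases between them (mm10, GENCODE annotation). As a description only, Kcnj8 was at 2155 CPM in ULI, 1462 CPM in ULC and 1037 CPM in control, and Abcc9 at 3418, 2753 and 2704 CPM. Vtn, the adhesion protein vitronectin, was at 7397, 8343 and 7436 CPM in ULI, ULC and control. Atp13a5, a transporting ATPase, was at 3338, 1739 and 2537 CPM. Higd1b was at 430, 1046 and 843 CPM, lowest in ULI, and Art3, an ADP-ribosyltransferase family member, at 1080, 651 and 620.5 CPM, highest in ULI. A clustering of all kept cells placed 164 pericytes (88.6%) in 1 of 29 clusters, which held 116 ULI, 51 ULC and 39 control cells.

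Single pericytes varied more than counting alone gives. Over 583 genes the variance between cells was a median of 2.39, 2.37 and 2.12 times the Poisson expectation in ULI, ULC and control, and 198 genes were at or above 2 in each library. Rgs5 led this ranking, with ratios of 22.5, 32.4 and 39.5 in ULI, ULC and control. Apod, a fibroblast gene, and Mbp, a myelin gene, came next. How far transcripts of other cell types add to this spread was not tested.

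Levels were compared between libraries as ratios of UMIs summed over pericytes. A gene counted as measured when the libraries compared held 20 or more UMIs of it between them, and as called when it differed by at least 2-fold and the exact 95% Poisson intervals did not overlap. Both comparisons to control share the control library, and ULI and ULC came from the same mice, so the 3 comparisons are not independent. A call compares 2 libraries, not 2 conditions.

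In ULI against control, 198 of 3340 measured genes were called higher (5.93%) and 155 were called lower (4.64%), with a median log2 ratio of 0.14 over all measured genes. Nr1d2, a nuclear receptor that represses transcription in the circadian clock, led the genes called higher, with 51 UMIs in 23 ULI pericytes, against 1 UMI in control. Its log2 ratio was 4.69 (95% counting interval 2.14 to 10.02), while it was 0.13 in contractile mural cells, 1.23 in smooth muscle cells, 1.02 in endothelial cells and 0.75 in all other cells. ULC pericytes had 13 UMIs of Nr1d2. Trpc4, a receptor-operated cation channel, had 52 UMIs in 30 ULI pericytes, 13 in ULC and 3 in control (ULI to control 3.13, interval 1.503 to 5.45), and was at 0.59 in contractile mural cells and 2.29 in all other cells. Both genes were thus sparse in control pericytes, where the wide intervals reflect 1 and 3 UMIs.

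Pla1a, a phospholipase that acts on phosphatidylserine, had 97 UMIs in ULI (454 CPM), 51 in ULC (544 CPM) and 10 in control (93 CPM). It was called higher in ULI (log2 ratio 2.29, interval 1.35 to 3.40) and in ULC (2.55, interval 1.56 to 3.70), and its ratios in the contractile mural cells of the same libraries were 2.41 and 2.43. In all other cells, where its level was low (4.39, 3.63 and 0.599 CPM in ULI, ULC and control), they were 2.88 and 2.60. After thinning to 1000 UMIs, 26.9% of ULI, 41.2% of ULC and 5.88% of control pericytes had a Pla1a UMI, against 0%, 0.292% and 0.123% of microglia, and unthinned 37 of 106, 18 of 43 and 8 of 36 pericytes did. The highest control pericyte had 0.674 UMIs per 1000, against 6.01 in ULI and 3.92 in ULC.

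Other genes called higher in ULI were Spp1, osteopontin, with 110 UMIs in ULI, 26 in ULC and 6 in control (ULI to control 3.21), and Hspa1b, an inducible heat shock protein, with 137, 18 and 8 UMIs (ULI to control 3.11). The 6 control UMIs of Spp1 came from 1 cell. Hspa1b has a nearly identical neighbour, Hspa1a, whose ratio was 0.76 and was not called, so the split of reads between both copies is uncertain. Nodal, a secreted ligand of the TGF-beta superfamily, had 61, 14 and 8 UMIs in ULI, ULC and control (ULI to control 1.94), and was among the 10 genes that led the pericyte cluster. Gypc (3.63, interval 1.70 to 6.71, on 2 control UMIs), Mark1, a microtubule-affinity kinase (2.94), Tmem123 (2.25), Rps27rt (2.04), Ctgf, a matricellular protein (1.91), and Golga7 (1.801) completed the 12 highest. In all other cells Hspa1b was at -0.06, and Mark1, Tmem123, Rps27rt, Nodal and Golga7 had log2 ratios of 0.43, -0.56, 0.03, -0.05 and -0.21. Gypc, Spp1 and Ctgf were higher there too, at 1.62, 1.45 and 1.11. Spp1 was also at 2.64 in smooth muscle cells, Hspa1b at 1.49 in smooth muscle cells, and Mark1 at 2.75 and Ctgf at 1.74 in endothelial cells.

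Nrep, a small intracellular protein first described in regenerating neurons, was the clearest of the genes called lower. It had 131 UMIs in ULI (612 CPM), 27 in ULC (288 CPM) and 272 in control (2519 CPM), and was called lower in ULI (log2 ratio -2.04, interval -2.35 to -1.73) and in ULC (-3.13, interval -3.76 to -2.56). In contractile mural cells the ratios of Nrep were -1.87 and -2.36, and in all other cells 0.17 and -0.18. At 1000 UMIs per cell, 34.4% of ULI, 14.7% of ULC and 82.4% of control pericytes had an Nrep UMI, against 1.83%, 3.21% and 5.64% of microglia, and unthinned 49 of 106, 12 of 43 and 31 of 36 did. Smooth muscle cells (-1.27 and -2.24) and endothelial cells (-1.60 and -2.19) were also more than 2-fold lower in Nrep, so these vascular classes shared the difference. It was not seen in all other cells. Here and elsewhere these are all kept non-pericytes pooled, vascular classes included, so their ratio is not that of non-vascular cells alone.

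The remaining genes called lower in ULI included Serpinh1, a collagen chaperone (332 CPM in ULI, 945 CPM in control, log2 ratio -1.51, and -1.29 in all other cells), and Tagln2, transgelin-2 (369 and 1306 CPM, -1.82). Ribosomal and translation genes stood among the lowest: Rps3 (-1.87) and Rpl21 (-1.75) were also lower in all other cells, at -1.22 and -1.18. Fundc2 (-2.02), Rras (-1.78), Hnrnpc (-1.62) and H2afv (-1.57) were between -0.22 and 0.41 in all other cells. Rtl8b (-1.75) and Hspa8, a constitutive heat shock protein (-1.63), were at -0.98 and -1.12 there. Without the pericytes of a second class, 93 of the 198 genes called higher and 76 of the 155 called lower kept their call, and of the genes named here Rtl8b lost it.

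In ULC against control, 145 of 2132 measured genes were called higher (6.8%) and 146 were called lower (6.85%), with a median log2 ratio of -0.12 over all measured genes. Ndufa4l2, a mitochondrial protein induced by low oxygen and a known pericyte gene, led with 2 UMIs in ULI, 53 in ULC and 1 in control (ULC to control 5.93, interval 3.39 to 11.26). Its ratio was 3.75 in contractile mural cells, 5.04 in smooth muscle cells and 5.02 in all other cells, so it set the ULC library apart beyond pericytes. Bgn, the proteoglycan biglycan, had 50, 147 and 24 UMIs in ULI, ULC and control (ULC to control 2.82), and was at 2.57 in contractile mural cells and 3.54 in all other cells. Lamp1 (4.93, interval 3.01 to 8.01, on 2 control UMIs), Rpl8 (3.81), Eif5a (3.45), Actn4 (2.88), Arhgdia (3.47), Efhd2 (2.43) and Rps14 (2.37) were likewise between 1.83 and 3.19 in all other cells. Of the 145 genes called higher, 91 were at least 2-fold higher in all other cells of ULC too, against 59 of the 198 in ULI. The same count was not taken over all measured genes, so how far the calls exceed that background is not known. The other cells also differed in make-up: microglia were 16.1%, 8.89% and 36.9% of kept cells in ULI, ULC and control.

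Among the highest genes in ULC, Egr1 and Fos, both immediate early transcription factors, did not follow that pattern. Egr1 had 62, 59 and 6 UMIs in ULI, ULC and control (ULC to control 3.50, and -0.27 in all other cells). Fos had 119, 91 and 20 UMIs (ULC to control 2.39, and 0.78 in all other cells). The higher level was not particular to pericytes among vascular cells. In endothelial, smooth muscle and contractile mural cells of ULC, Egr1 was at 1.33, 0.91 and -0.11, and Fos at 1.33, 0.92 and 1.21.

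Of the 146 genes called lower in ULC, 16 were at least 2-fold lower in all other cells of ULC too, again without a count over all measured genes. Heyl, a transcription factor induced by Notch signalling, had 43 UMIs in ULI, 5 in ULC and 45 in control, and was called lower in ULI (-1.05, interval -1.69 to -0.42) and in ULC (-2.97, interval -4.66 to -1.64). It was at 1.10 and 0.82 in all other cells of ULI and ULC, and at -2.03 and -0.19 in their contractile mural cells. Mcam, a mural adhesion molecule, had 112, 16 and 68 UMIs in ULI, ULC and control (ULC to control -1.88), and Tmem45a 71, 6 and 48 UMIs (-2.80). Pls3, an actin bundler (-2.57), S100a11 (-2.15), Lbh (-1.84), Psmb4 (-1.80), Dazap2 (-1.60), Pomp (-1.93), Rps20 (-1.73) and Rassf3 (-1.69) completed the 12 lowest, and their ratios in all other cells lay between -0.91 and 0.09. Without the pericytes of a second class, 60 of the 145 genes called higher and 43 of the 146 called lower kept their call, and Pomp, Rps20 and Rassf3 lost it.

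**Figure D3:**
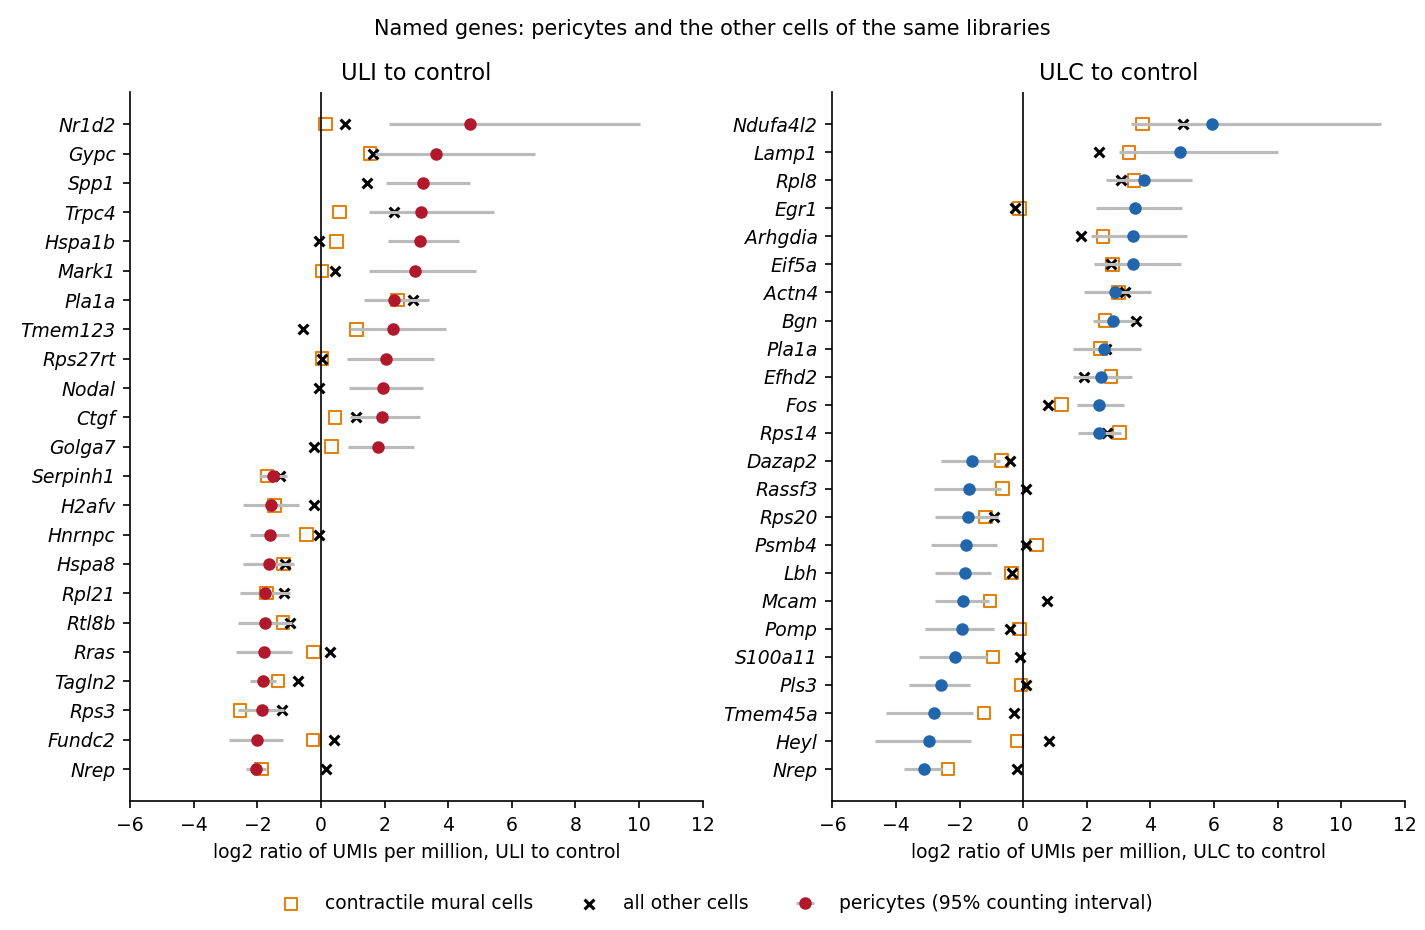
Log2 ratios to control of the highest and lowest named genes in ULI (left) and ULC (right) pericytes (filled points) with 95% counting intervals (lines), beside the ratios in contractile mural cells (squares) and all other cells (crosses) of the same libraries. In ULC most of the higher genes have crosses near the points (Bgn 2.82 in pericytes and 3.54 in all other cells), while Nrep and Heyl lie apart from theirs.

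Of 2020 genes measured in both comparisons to control, 25 were called higher and 54 lower in both, and the shared control library enters each of these. The genes named from this overlap were chosen after their values were seen. Of the 25, 12 kept both calls without the pericytes of a second class, among them Cebpd, Ctgf, Egr1, Epn2, Fos, Hecw2, Perp, Pla1a, Steap4, Timp3 and the choroid plexus gene Ttr. Perp, a membrane protein of cell junctions, had 292 UMIs in ULI, 95 in ULC and 46 in control (log2 ratios 1.68 and 1.25), and was at 2.51 and 2.63 in all other cells. Steap4, a metalloreductase, had 32, 30 and 1 UMIs (log2 ratios 4.01, interval 1.43 to 9.36, and 5.11, interval 2.52 to 10.46), of which 1 cell held 34.4% in ULI and 53.3% in ULC. Of the 54 called lower in both, 14 kept both calls: 2010107E04Rik, Bsg, Cdh6, Chp2, Heyl, Mki67, Nrep, Nsa2, Nts, Nucks1, Stmn1, Tmem184b, Tuba1b and Zcchc14. Among them Nts, the neuropeptide neurotensin, had 11 UMIs in ULI, 0 in ULC and 33 in control, the last from 11 cells. Some of the 14 rested largely on 1 cell. Over all pericytes, 1 control cell held 61% of the Bsg, 86.2% of the Mki67, 80% of the Stmn1 and 47.6% of the Cdh6 UMIs. For the others it held at most 30.3%. In ULC 1 cell held 90.9% of the Bsg UMIs.

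**Figure D4:**
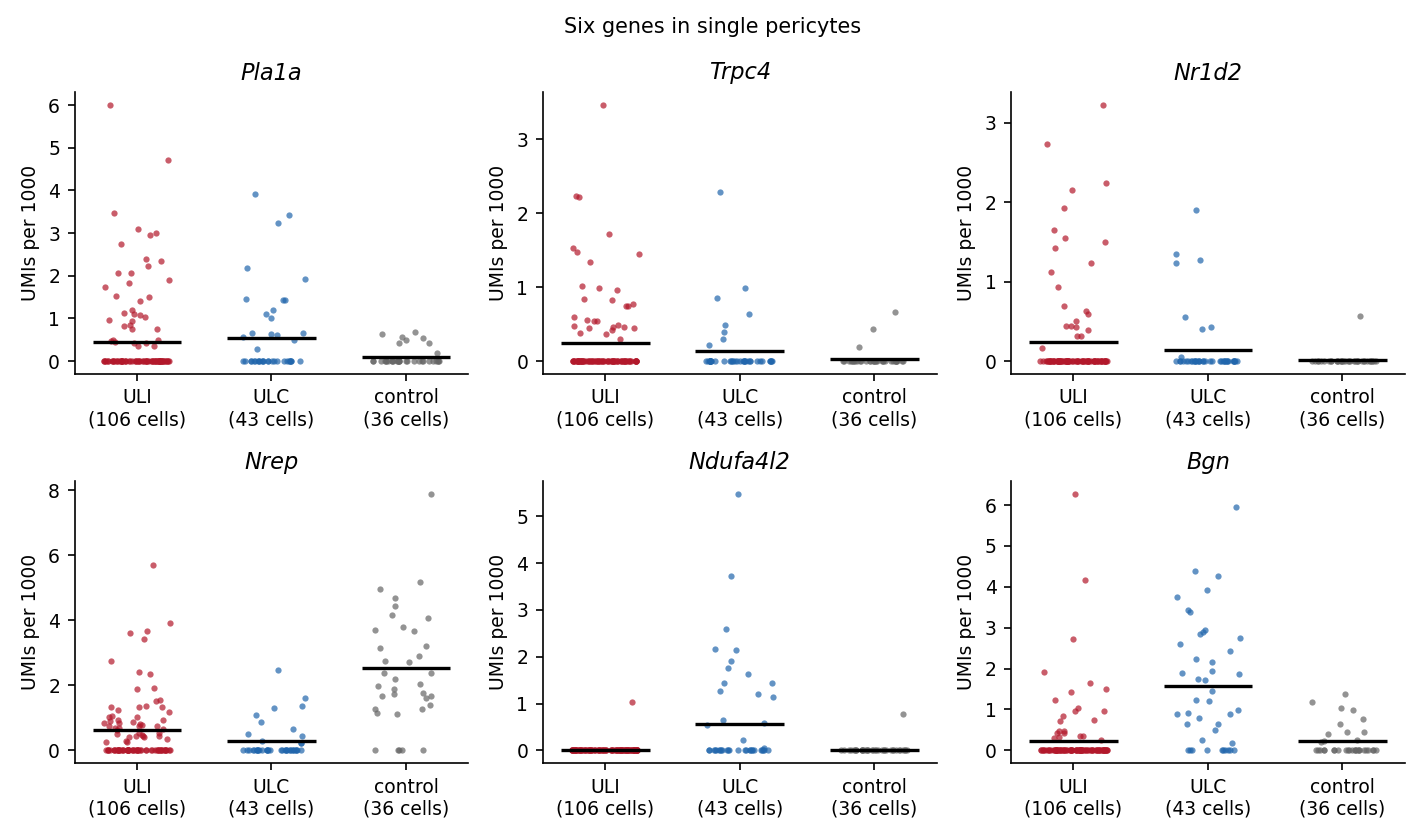
UMIs per 1000 in each pericyte (points) of the ULI, ULC and control libraries, with the summed level of the library (line), for 6 genes picked after their values were seen. Nrep points lie highest in control, where the line is at 2519 CPM, while Ndufa4l2 is almost confined to ULC (18 of 43 cells, against 1 of 106 in ULI and 1 of 36 in control).

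The genes of 17 functional lists were then followed. Counts of calls in a list are to be read against the shares of all measured genes. These were 5.93% called higher and 4.64% lower in ULI, and 6.8% and 6.85% in ULC. These shares cover all pericytes. For lists without the pericytes of a second class, the counts over all genes are given below for ULC and for ULI to ULC. For ULI to control they are not given. Over the lists, the median log2 ratio stood at least 0.5 above that of all measured genes in 5 of 34 comparisons to control and at least 0.5 below it in 6: transporters (-1.46), interferon-stimulated (-0.57), hypoxia (-0.71) and cell cycle genes (-0.99) in ULI, and fibrosis genes (-0.74) and nuclear RNAs (-1.12) in ULC. In the pericyte identity list, which overlaps with genes tied to the selection, 1 of 33 measured genes was called higher and 3 lower in ULI (median 0.08), and 2 of 34 were called higher and 4 lower in ULC (median -0.15). The genes called higher in ULC were Ndufa4l2 and Gja4, a connexin of arterial walls with 14, 44 and 14 UMIs in ULI, ULC and control (ULC to control 1.86, and 3.68 in all other cells). Foxf2, a transcription factor needed for brain pericytes, had 54, 10 and 34 UMIs (ULC to control -1.56), a call not kept without the pericytes of a second class. Ifitm1, Esam and Heyl were the genes called lower in ULI (-1.22 and -1.40 for Ifitm1 and Esam), and Esam lost its call without those pericytes, in ULI and in ULC.

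**Figure D5:**
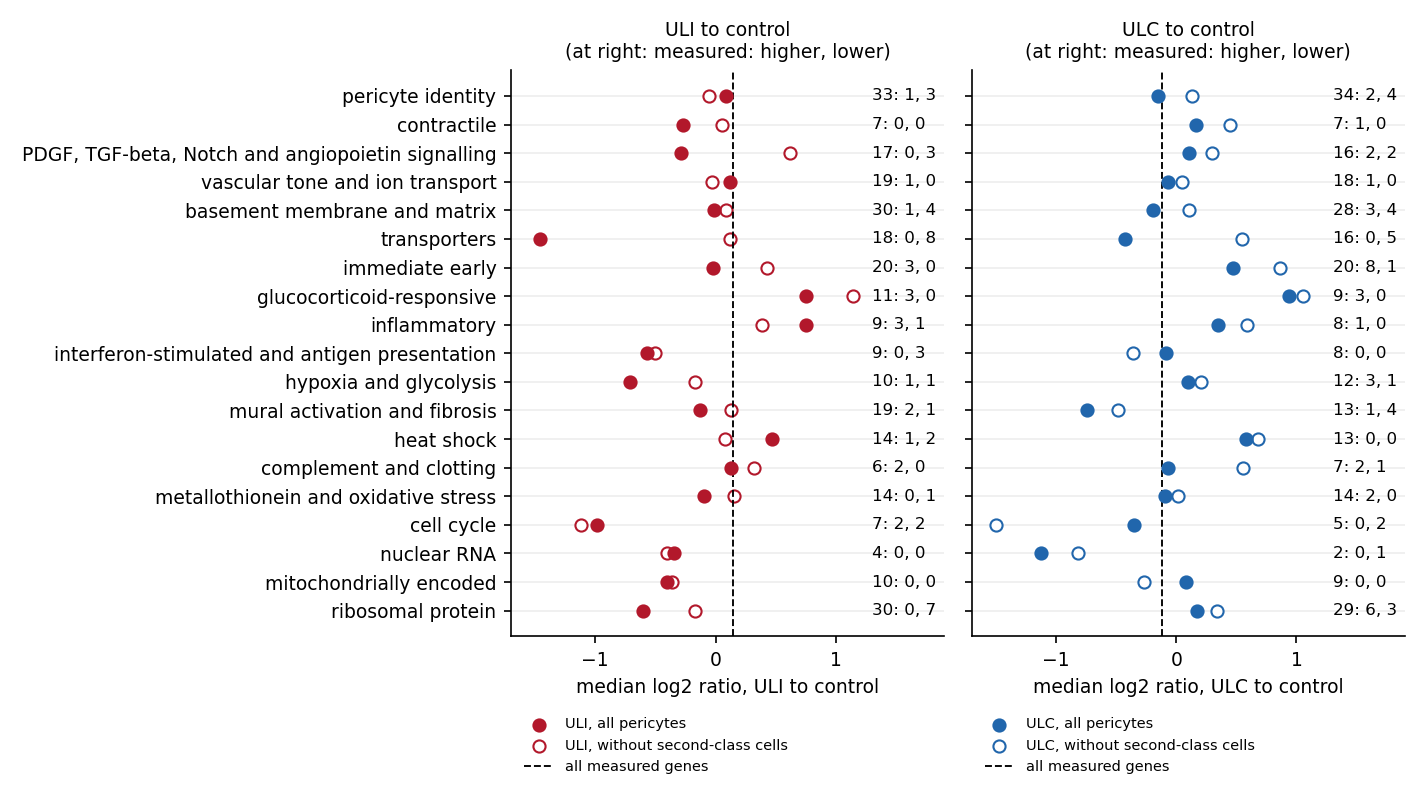
Median log2 ratio to control of each gene list in ULI (left) and ULC (right), over all pericytes (filled) and without pericytes of a second class (hollow), with the median of all measured genes (dashed). The numbers at the right give measured genes, then those called higher and lower; the glucocorticoid-responsive list lies right of the dashed line in both panels (0.75 and 0.94), and the ULI point of the transporter list lies at -1.46 with all pericytes and at 0.12 without those of a second class.

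Signalling genes of the PDGF, TGF-beta, Notch and angiopoietin pathways numbered 17 measured in ULI, of which 0 were called higher and 3 lower (Heyl, Id3 and Flt1), and 16 in ULC, of which 2 were called higher (Id3 and Nrp1) and 2 lower (Heyl and Flt1). Nrp1, a co-receptor for vascular growth factors, had 45, 36 and 14 UMIs in ULI, ULC and control (ULC to control 1.57). Flt1 is 1 of the 6 endothelial markers and had 48, 17 and 62 UMIs in ULI, ULC and control. Without the pericytes of a second class it was not called in ULI and not measured in ULC. The part of endothelial transcripts in its calls was not tested. Of the genes for vascular tone and ion transport, 1 of 19 was called higher in ULI, the cGMP-dependent kinase Prkg1 (38, 12 and 6 UMIs, 1.68, not called without the pericytes of a second class), and 1 of 18 in ULC, the adenosine receptor Adora2a. Adora2a had 5 UMIs in ULI, 28 in ULC and 0 in control, at least 3.43 higher on the log2 scale in ULC against a floor of 3 UMIs for the control pericytes. The medians of the tone list were 0.12 and -0.07, and 0 of its genes were called lower. Of all measured genes, 5.93% were called higher and 4.64% lower in ULI, and 6.8% and 6.85% in ULC. The higher calls of the tone list are near these shares. Of 7 measured contractile genes, 0 were called in ULI and 1 was called higher in ULC, the calponin Cnn2 (12, 47 and 12 UMIs, ULC to control 2.17).

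Basement membrane and matrix genes, the shared scaffold of pericytes and endothelium, had 1 of 30 called higher and 4 lower in ULI (median -0.01), and 3 of 28 called higher and 4 lower in ULC (median -0.19). The shares over all measured genes were 5.93% higher and 4.64% lower in ULI, and 6.8% and 6.85% in ULC. Timp3, an inhibitor of matrix proteases, had 36, 24 and 3 UMIs in ULI, ULC and control, and was called higher in ULI (2.60, interval 0.94 to 4.94) and ULC (3.20, interval 1.48 to 5.58). Lamb2, a laminin chain, had 9, 31 and 6 UMIs and was called higher in ULC (2.57). The main collagen of the membrane was not called against control: Col4a1 was at 2081, 4396 and 2556 CPM and Col4a2 at 2427, 2731 and 2297 CPM in ULI, ULC and control. Col4a1 was called lower in ULI than in ULC (-1.08). Fn1 and Col18a1, called lower in both, had 51.6% and 58.3% of their control UMIs in 1 cell. Without the pericytes of a second class 5 of 25 matrix genes were called higher in ULC, Col4a1 among them, and 0 lower. The fibrosis list had 2 of 19 called higher in ULI, Spp1 and the collagen crosslinker Lox (31, 7 and 2 UMIs, 2.97, interval 0.99 to 6.08), and 1 called lower, Fn1. In ULC it had 1 of 13 called higher, Spp1, and 4 called lower (Col3a1, Fn1, S100a11 and Anxa5, median -0.74).

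Several transporters that were called lower are genes of brain endothelium, whose markers were higher in the control pericytes. In ULI 8 of 18 measured transporters were called lower (median -1.46) and in ULC 5 of 16 (median -0.43), against 4.64% and 6.85% of all measured genes. Slc16a1, a lactate carrier of brain endothelium, had 2 UMIs in ULI, 0 in ULC and 58 in control, and 56.9% of the control UMIs came from 1 cell. Slc2a1, the glucose carrier of brain endothelium, had 0, 2 and 21 UMIs, and Abcb1a, an efflux pump, 1, 1 and 32 UMIs, with 52.4% and 59.4% of the control UMIs in 1 cell. Without the pericytes of a second class, 9 and 10 transporters were measured in ULI and ULC, 2 and 0 were called lower, and the medians were 0.12 and 0.55. The genes that kept a lower call in ULI were Slc22a8 and Atp2a3, a calcium pump (10, 49 and 34 UMIs in ULI, ULC and control), and Atp2a3 was also called lower in ULI than in ULC (-3.48). Slc6a13, a GABA transporter with 11, 17 and 21 UMIs, was called lower in ULI than in ULC as well (-1.82), where the summed endothelial markers were 351 and 533 CPM. Slc22a8, an organic anion transporter found in mural cells, kept its call in ULI (43 UMIs in ULI, 17 in ULC and 71 in control, ULI to control -1.71). Slc6a20a, a proline transporter of brain pericytes, was at 2819, 1664 and 1574 CPM in ULI, ULC and control and was not called.

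Immediate early genes, which encode factors switched on within minutes of a stimulus, had 3 of 20 called higher and 0 lower in ULI (median -0.02) and 8 of 20 called higher and 1 lower in ULC (median 0.47). The 8 in ULC were Fos, Fosb, Egr1, Nr4a1, Klf6, Dusp1, Cyr61 and Ctgf, and the 3 in ULI were Fos, Egr1 and Ctgf. Of all measured genes, 5.93% were called higher in ULI and 6.8% in ULC. Fosb had 8 UMIs in ULI, 66 in ULC and 4 in control, Nr4a1 16, 42 and 11, and Dusp1, a phosphatase that ends MAP kinase signals, 59, 56 and 28. The UMIs came from few cells: in ULC, Fosb was seen in 8, Nr4a1 in 7, Dusp1 in 10 and Fos in 14 of 43 pericytes, and 1 cell held 43.9% of Fosb. At 1000 UMIs per cell a Fos UMI was found in 16.1%, 29.4% and 17.6% of the pericytes of ULI, ULC and control, below the microglia of the same libraries (62.6%, 49.3% and 54.4%), so no difference is read from these shares. In the contractile mural cells the list's median was -0.02 in ULI and -0.47 in ULC, in smooth muscle cells 0.20 and 0.82, in endothelial cells 0.17 and 0.53, and in all other cells 0.01 and -0.13. Without the pericytes of a second class, 5 of 17 measured genes were called higher in ULI and 5 of 15 in ULC, the ULC genes being Fos, Egr1, Dusp1, Cyr61 and Ctgf.

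The promoters of 4 of these 8 genes are shown, because the genes were called higher together in ULC and each holds the letters TGACG, the core of the element bound by CREB and ATF factors. The sequences are RefSeq promoters on GRCm38.p6, from 250 bases before to 50 after the start. TGACG was searched on both strands, and capitals mark each match (CGTCA is the match on the other strand, and a TGACGTCA run is 2 overlapping matches). Fos lies at chr12:85473640-85473939 on the plus strand, Fosb at chr7:19309996-19310295 on the minus strand, Nr4a1 at chr15:101266596-101266895 on the plus strand and Dusp1 at chr17:26508423-26508722 on the minus strand.
Fos: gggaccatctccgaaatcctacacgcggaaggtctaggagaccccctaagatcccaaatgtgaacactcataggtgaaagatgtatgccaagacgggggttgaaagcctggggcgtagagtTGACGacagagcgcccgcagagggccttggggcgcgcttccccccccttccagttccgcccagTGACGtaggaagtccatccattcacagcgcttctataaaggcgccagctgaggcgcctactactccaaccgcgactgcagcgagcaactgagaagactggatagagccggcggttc
Fosb: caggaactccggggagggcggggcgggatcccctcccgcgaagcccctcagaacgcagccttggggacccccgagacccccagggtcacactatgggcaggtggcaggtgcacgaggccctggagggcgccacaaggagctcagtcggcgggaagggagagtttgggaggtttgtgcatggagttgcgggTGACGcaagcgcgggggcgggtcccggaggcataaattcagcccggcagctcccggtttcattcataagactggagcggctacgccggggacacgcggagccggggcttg
Nr4a1: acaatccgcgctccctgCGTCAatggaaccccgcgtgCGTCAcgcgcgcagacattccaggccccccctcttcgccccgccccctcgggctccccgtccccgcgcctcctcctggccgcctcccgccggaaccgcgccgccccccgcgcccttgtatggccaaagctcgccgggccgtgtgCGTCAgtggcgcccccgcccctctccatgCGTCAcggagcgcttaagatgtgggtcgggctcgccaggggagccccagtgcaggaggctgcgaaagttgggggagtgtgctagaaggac
Dusp1: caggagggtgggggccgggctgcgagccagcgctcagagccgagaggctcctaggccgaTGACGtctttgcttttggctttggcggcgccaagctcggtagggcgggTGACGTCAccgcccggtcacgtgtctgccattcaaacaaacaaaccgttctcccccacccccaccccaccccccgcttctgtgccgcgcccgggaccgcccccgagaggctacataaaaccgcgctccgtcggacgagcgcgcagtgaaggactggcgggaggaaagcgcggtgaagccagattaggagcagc
They hold 2, 1, 4 and 3 matches. Of the 8 genes, 6 had a promoter that could be used, and 5 of these held the letters, Klf6 being without them. Of all 32851 promoters of the same length, 6837 (20.8%) held them. A match is a description of the letters and not a binding site.

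Glucocorticoid-responsive genes stood above the median of all measured genes in both comparisons. In ULI 3 of 11 measured genes were called higher and 0 lower (median 0.75), and in ULC 3 of 9 were called higher and 0 lower (median 0.94). Over all measured genes, the shares called higher were 5.93% in ULI and 6.8% in ULC. Sgk1, a kinase induced by corticosteroids, had 70 UMIs in ULI, 34 in ULC and 9 in control (log2 ratios 1.97 and 2.12), though 1 cell held 31.4% and 50% of the UMIs in ULI and ULC. Cebpd, a transcription factor, had 49, 23 and 8 UMIs (1.63 and 1.73) and was at 0.04 and -0.17 in all other cells. Tsc22d3, the glucocorticoid-induced leucine zipper, had 88, 25 and 17 UMIs and was called higher in ULI (1.39), with 1.32 in contractile mural cells and -0.16 in all other cells. Sult1a1, a sulfotransferase, was called higher in ULC (55, 30 and 12 UMIs, 1.53). In contractile mural cells the list's medians were 0.89 in ULI and 0.34 in ULC, in smooth muscle cells 0.61 and 0.86, in endothelial cells 0.60 and 0.998, and in all other cells 0.18 and 0.16. With second-class pericytes left out, 3 of 9 measured genes were called higher in ULI and 1 of 5 in ULC, where Sgk1 was not measured.

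Inflammatory genes had 3 of 9 called higher and 1 lower in ULI (median 0.75) and 1 of 8 called higher in ULC (median 0.34). All measured genes had 5.93% called higher and 4.64% lower in ULI, and 6.8% and 6.85% in ULC. With second-class pericytes left out, the ULI median was 0.38, with 3 of 8 called higher, and in ULC 2 genes were measured and 0 called. Spp1, the gene called in ULC, had 57.7% of its ULC UMIs in 1 cell and was not measured without those pericytes. Osmr, a receptor subunit for oncostatin M, had 62 UMIs in ULI, 14 in ULC and 14 in control, and was called higher in ULI (1.16). Cxcl1, a neutrophil-attracting chemokine, had 26, 8 and 1 UMIs, from 4, 1 and 1 cells, with 50% of the ULI UMIs in 1 cell. Spp1, described above, came from 16 ULI and 5 ULC pericytes. Microglial markers summed to 458 CPM in ULI, 864 CPM in ULC and 74.1 CPM in control pericytes, with Tmem119 and C1qa at 0 in ULI and in control, and their part in the Spp1 values was not tested. Of the complement and clotting genes, 2 of 6 were called higher in ULI (C1s1 among them, median 0.13) and 2 of 7 higher (Clu among them) and 1 lower (Pros1) in ULC (median -0.07). Clu had 97.2% of its ULC UMIs in 1 cell. Interferon-stimulated genes had 0 of 9 called higher and 3 lower in ULI (Ifitm1, Ifi27 and Ly6e, median -0.57) and 0 of 8 called in ULC.

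Of the hypoxia and glycolysis genes, 1 of 10 was called higher and 1 lower in ULI (median -0.71) and 3 of 12 were called higher and 1 lower in ULC (median 0.10). For this list and those that follow, the shares over all measured genes were 5.93% higher and 4.64% lower in ULI. In ULC they were 6.8% and 6.85%. Bnip3l, a mitophagy receptor, had 83, 21 and 18 UMIs and was called higher in ULI (1.22). The lower call was Slc2a1 in both. In ULC the calls were Ndufa4l2 and the glycolytic enzymes Eno1 and Pkm, and Eno1 had 64.7% of its 17 UMIs in 1 cell. Heat shock genes had 1 of 14 called higher (Hspa1b) and 2 lower (Hspa8 and Hsp90ab1) in ULI and 0 of 13 called in ULC (medians 0.47 and 0.58). Cell cycle genes had 2 of 7 called higher (Pcna and Cdkn1c) and 2 lower in ULI and 0 of 5 called higher and 2 lower in ULC. The lower calls, Mki67 and Stmn1, rested on 2 and 3 control cells, with 29 and 20 UMIs of which 1 cell held 86.2% and 80.0%, and 0 UMIs of Mki67 were found in ULI and ULC. The antioxidant list had 0 of 14 called higher and 1 lower in ULI and 2 of 14 called higher in ULC, Mt3 and Prdx5, with 90.0% and 51.4% of their ULC UMIs in 1 cell.

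Calls of ribosomal protein genes differed between the UL libraries. In ULI 0 of 30 measured were called higher and 7 lower (median -0.60), and in ULC 6 of 29 were called higher and 3 lower (median 0.17). The list's medians in contractile mural cells were -0.94 and -0.49, and in all other cells -0.29 and -0.16. Without the pericytes of a second class the medians were -0.17 and 0.34, with 5 lower calls in ULI and 5 higher calls in ULC. In the direct ratio of ULI to ULC the list's median was -0.32 over all pericytes and 0.007 in contractile mural cells. It was 0.04 without the pericytes of a second class, where the median of all measured genes was 0.22. There 9 of 29 genes were still called lower and 1 higher. Over all pericytes, 8.12% of measured genes were called higher and 7.28% lower in ULI to ULC. The counts over all genes without those pericytes are given in the closing section. Ribosomal protein genes have many near-identical copies in the genome, so reads of single genes may be divided. Mitochondrially encoded genes had 0 calls in either comparison (medians -0.40 and 0.08), and nuclear RNAs had 0 of 4 called in ULI and 1 of 2 called lower in ULC, Meg3.

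Between both sides of the same mice, ULI against ULC, 263 of 3240 measured genes were called higher (8.12%) and 236 lower (7.28%), with a median log2 ratio of 0.29. The 5 highest were Ube2e3 (3.56), Xrn2 (3.01), Arid4b (2.85), Akirin2 (2.84) and Tmem45a (2.37). Few UMIs on the ULC side make these intervals wide: Ube2e3, a ubiquitin-conjugating enzyme, had 54 UMIs in ULI and 2 in ULC (1.64 to 6.65), Xrn2, an RNA-degrading nuclease, 55 and 3 (1.38 to 5.33), and Akirin2 49 and 3 (1.21 to 5.17). In all other cells these 5 lay between 0.29 and 0.95. The 5 lowest were Ndufa4l2 (-5.92, interval -9.00 to -3.99, on 2 ULI UMIs), Rpl8 (-5.06), Lamp1 (-3.92), Actn4 (-3.87) and Eif5a (-3.85), which lay between -4.67 and -3.34 in all other cells. Of the 236 genes called lower, 159 were at least 2-fold lower in all other cells, against 3 of the 263 called higher that were at least 2-fold higher there. No such count was taken over all measured genes. Mcam and Heyl, described above, were called higher in ULI than in ULC, with log2 ratios of 1.62 and 1.91. Without the pericytes of a second class, 96 of the 263 genes called higher and 114 of the 236 called lower kept their call. The 5 highest and 5 lowest genes kept theirs. The pericyte identity list then had 1 gene called higher instead of 3 (Mcam, Foxc1 and Heyl), so at most 1 of Mcam and Heyl kept its call.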

How the data were processed

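The authors deposited 1 table of raw UMI counts, whole numbers per gene and cell barcode, for the 3 libraries, which was used as deposited. Per the submitters' processing notes, CASAVA 1.8, UMI-tools and Seurat were used with mm10; aligner, annotation and cell-calling rule: not given in the sources used here. Barcodes were renamed before deposit, so those shared between libraries could not be counted, and 0 pairs of identical profiles were found.

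Of 14876 barcodes with 57216827 UMIs, 912 under 200 genes were left out. No doublet caller was run. Instead, pericytes with 3 markers of a second class other than oligodendrocyte were left out as an alternative. UMIs were summed over the pericytes of each library, scaled to CPM, and compared by log2 ratios with exact binomial intervals; Poisson and Clopper-Pearson intervals (95%) cover counting error only. Where 1 library held 0 UMIs, 3 UMIs stood in as its floor. Shares were also taken after thinning to 1000 UMIs. Cells were clustered by the Leiden method (2000 variable genes, 30 components, 20 neighbours, resolution 1) in scanpy 1.11.5 with Python 3.11.15 and scipy 1.17.1. Alternative scaling used the TMM factors of edgeR 4.0.16 and the size factors of DESeq2 1.42.0 in R 4.3.3; neither tool was used for a test.

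Genes named were the markers of the rule, the 15 leading genes, the 12 highest and 12 lowest called ratios to control and the 5 highest and lowest of ULI to ULC (at least 50 UMIs, no cell above 25% of those of the higher library, predicted genes left out), list genes, and genes called in opposite directions. A few genes that meet this rule are not reported here. The members and lists were chosen with earlier results of these data known.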

Additional observations from a re-analysis of the deposited data

Results flagged for a closer look

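Id3, Rps3 and Eef2 were called in opposite directions to control in ULI and ULC pericytes, against the same control library, and with 1 library per group this difference was not tested across replicates. In the direct ratio of ULI to ULC all 3 were called lower (Id3 -4.00, Rps3 -3.13 and Eef2 -2.61). Id3, a transcriptional regulator induced by BMP signalling, had 9 UMIs in ULI, 63 in ULC and 32 in control (log2 ratios -2.82 in ULI and 1.18 in ULC). One cell held 39.7% of its ULC UMIs, and without the pericytes of a second class it was not measured in ULI and not called in ULC. Rps3, a ribosomal protein, had 26, 100 and 48 UMIs (-1.87 and 1.26), and Eef2, a translation elongation factor, had 31, 83 and 43 UMIs (-1.46 and 1.15). Rps3 was at -1.22 and 1.22 and Eef2 at -1.16 and 1.37 in all other cells of ULI and ULC. Rps3 kept both calls without the pericytes of a second class, and Eef2 kept only the ULI call.

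Among the 912 barcodes below the gene minimum, 1 barcode met the marker rule of pericytes. It came from ULC, where 454 barcodes lay below the minimum, and held 443 UMIs, 197 genes and 3 markers. The other libraries had 0.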

How the results depend on the processing

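No paired analysis was possible because each group is 1 library, and for the same reason no replicate could be left out. The ULI share was highest in each of these settings, but with no contractile gene allowed its interval overlapped those of ULC and control. The pericyte share ULI, pericyte share ULC and pericyte share control were 0.312%, 0.286% and 0.109% with no contractile gene allowed and 20.8%, 12.8% and 10.8% of vascular cells (a denominator added after seeing the data). Further shares outside the main interval were 1.75% (ULI, 4 markers), 2.79% (ULI) and 1.47% (ULC) at 1000 UMIs, 1.40% (ULC, 500 genes), 1.17% (control, 2 markers) and 0.434% (control, no second class at all).

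Counts of called genes moved more, in the order genes higher ULI to control, genes lower ULI to control, genes higher ULC to control, genes lower ULC to control, genes higher ULI to ULC and genes lower ULI to ULC. They were 9, 10, 40, 46, 72 and 52 with no contractile gene, and 122, 94, 65, 45, 149 and 139 with no second class at all, oligodendrocyte included. They were 38, 27, 37, 15, 41 and 67 at 1000 UMIs, and 93, 59, 53, 54, 137 and 76 at a minimum of 50 UMIs. With 2 markers the first 4 were 414, 445, 317 and 412. In the pericyte cluster they were 128 and 98 in ULI, 70 lower in ULC, and 144 and 154 in ULI to ULC. With a second class other than oligodendrocyte left out (added after seeing the data) they were 89 and 61 in ULC and 150 and 149 in ULI to ULC. Measured genes then numbered 1438 in ULC to control and 2512 in ULI to ULC. At a minimum of 1 UMI, 342 were lower in ULI, 290 higher in ULC and 573 lower in ULI to ULC. List medians at least 0.5 above all genes numbered 5, against 9 with 2 markers, 3 with 4 markers, with no contractile gene or at 1000 UMIs, and 2 at 1 UMI. Of 58 named ratios, 5 kept their call with no contractile gene and 31 at 1000 UMIs, settings that leave fewer UMIs. Scaling by TMM or size factors kept all 58.

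Directions turned for Ctgf ULI to control (-0.052) and Golga7 ULI to control (-0.18) with 2 markers, for Spp1 ULI to control (-0.15), Tagln2 ULI to control (0.0051) and Efhd2 ULC to control (-0.0077) with no contractile gene, and for Rassf3 ULC to control (0.67) at 1000 UMIs. The cause was not tested.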
